A study of Homo sapiens with 6 samples.

Results

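The genes described here make proteoglycans, proteins that carry long sulfated sugar chains, and were measured by RNA sequencing in A549 cells with METTL3 knocked down. They were taken by symbol from a fixed list of 49 genes among 57781 rows of the count table. The rule names symbols and uses no measured value, although the list was drawn up with earlier results of these data known. The list holds 18 core proteins and 31 enzymes that build, sulfate or trim the chains. All 49 symbols had a row, and 42 of them, 14 core proteins and 28 enzymes, had enough counts to be tested. A549 is an established lung adenocarcinoma line, which the labels give as NSCLC (non-small cell lung cancer). The control group is 3 vector libraries, whose genotype the labels give as WT, and the other group is 3 shMETTL3 libraries, in which short hairpin RNA lowers METTL3, the catalytic subunit of the complex that writes N6-methyladenosine (m6A) on mRNA. The number of hairpins is not given in the sources used here. The count columns of this group are headed METTL3_sh1, METTL3_sh2 and METTL3_sh3, and whether these stand for different hairpins is not stated. The study's methods state in general that experiments were repeated independently, but not for these libraries in particular whether each came from its own culture. If they did not, the p-values measure only technical spread between libraries.

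A proteoglycan starts as a core protein, to which a short linker sugar is added on serine in the Golgi. The linker is then extended either to heparan sulfate, by enzymes of the EXT family, or to chondroitin sulfate, by chondroitin synthases, and sulfotransferases and epimerases finish the pattern that growth factors, chemokines and matrix proteins bind. Syndecans span the membrane, glypicans are held there by a lipid anchor, and versican, agrin and perlecan are secreted into the matrix. Hyaluronan is a related chain made at the plasma membrane without a core protein or sulfate. In epithelial tumours these molecules are known mainly as co-receptors and as parts of the matrix around the cells.

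The libraries held between 14931426 and 19108928 counts. METTL3 was lower in the shMETTL3 libraries, at 38.8% of the vector level, with counts of 364, 399 and 307 against 887, 846 and 808 (log2 fold change -1.36, standard error 0.067, adjusted p = 4.57e-16). Values below are counts as deposited or CPM (a count relative to the library's total, which edgeR's TMM method scales), and p-values are those of the quasi-likelihood test in edgeR, adjusted after Benjamini and Hochberg over 15125 genes. A gene passed the test at an adjusted p under 0.05. Most genes passed, 66.6% of those tested, of which 33.7% of those tested were higher and 32.9% lower in the shMETTL3 libraries, so that a call alone sets no gene apart. The direction of a small change depends on the scaling, since scaling by library size alone shifts the median log2 fold change of all genes by 0.17. The 10 markers fixed for A549, 6 of epithelia and 4 enzymes that the line expresses strongly, were detected in each library, and 8 were lower and 2 higher under knockdown. Their summed level, most of it ALDH1A1, KRT8 and AKR1B10, was 30040 to 31501 CPM in the vector and 19183 to 19813 CPM in the shMETTL3 libraries. EPCAM had 2014, 1870 and 1678 counts in the vector and 304, 348 and 254 in the shMETTL3 libraries, and KRT19 had 1181, 1108 and 1162 against 237, 277 and 193. The part of these shifts in the results below was not tested. Of 10 fibroblast markers, 4 were tested, 2 higher and 2 lower. The 10 markers of blood cells summed to at most 1.71 CPM in any library, with CD3E, TYROBP and CD53 at 0 in each. The 7 endothelial markers analysed summed to 1.32 to 3.31 CPM in the vector and 3.54 to 4.22 CPM in the shMETTL3 libraries, with VWF at 0 and CDH5 at 0, 0 and 2 counts against 30, 28 and 30.

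Core proteins and enzymes both changed, and in both directions. Of the 14 core proteins tested, 10 passed the test, 4 higher and 6 lower in the shMETTL3 libraries. Of the 28 enzymes tested, 22 passed, 14 higher and 8 lower. These shares, 71.4% and 78.6%, lie near the 66.6% of all genes. The median log2 fold change was -0.09 for core proteins and 0.27 for enzymes, beside 0.0022 for all genes tested. Relative to the vector mean, the median of the enzymes stood at 0.23, 0.27 and 0.24 in shMETTL3 replicates 1, 2 and 3, and that of the core proteins at -0.12, -0.04 and 0.02. The core median was not stable in sign, as it was 0.09 with scaling by library size alone and 0.07 without vector replicate 3. The difference between both classes was not tested, since the genes of a class are not replicates.

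Changes in the core proteins were larger in size than their median tells. The median absolute log2 fold change was 0.70 over the core proteins, 0.40 over the enzymes and 0.41 over all genes. An absolute log2 fold change of at least 1 with a passed test was found for 5 core proteins (GPC1 and SDC4 higher, SDC2, GPC4 and GPC6 lower) and for 8 enzymes (XYLT1, HS3ST3B1, SULF2, CHPF2, DSE, HAS2 and HAS3 higher, HS6ST2 lower). These are 35.7% of the core proteins and 28.6% of the enzymes tested, against 17.6% of all genes, of which 10.2% of those tested were higher and 7.42% lower. Over all tested genes of the list, the CPM of the 3 shMETTL3 libraries did not overlap with that of the 3 vector libraries for 34 of 42, or 81.0% (78.6% of the core proteins and 82.1% of the enzymes), beside 69.4% of all genes tested.

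**Figure D1:**
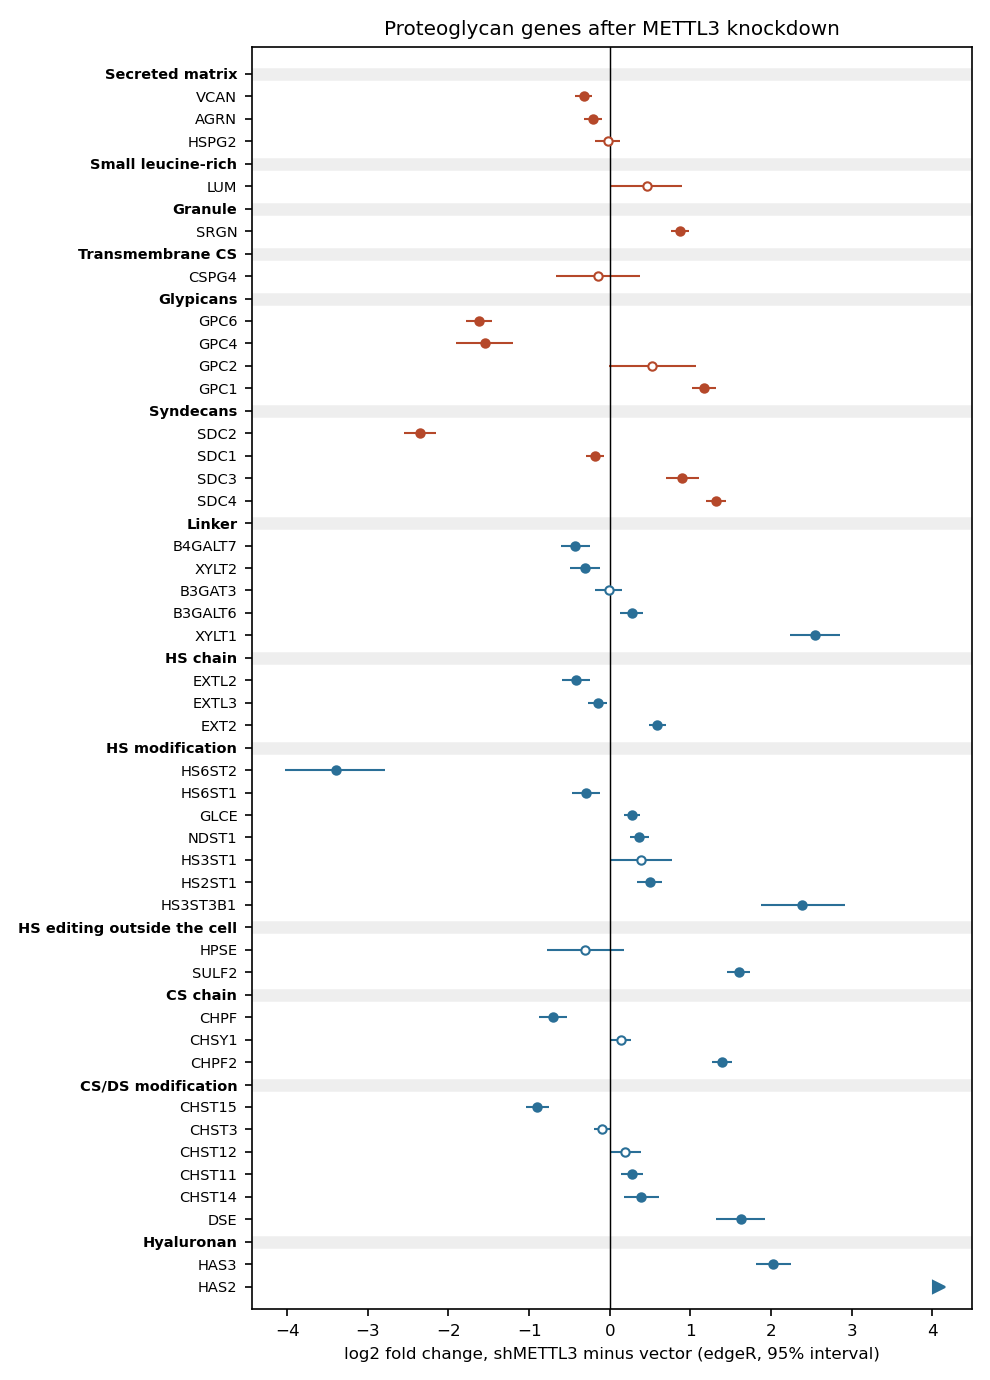
Log2 fold change (shMETTL3 minus vector, x axis) of the 42 tested genes, grouped by role, with core proteins in red and enzymes in blue. Bars are 95% intervals from the edgeR fit, and filled points passed the test at an adjusted p under 0.05. The arrowhead marks HAS2, whose vector libraries were all at 3 counts or fewer, by its knockdown mean against a level of 3 counts. HS6ST2 and SDC2 lie farthest to the left, and HAS2, XYLT1 and HS3ST3B1 farthest to the right.

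**Figure D2:**
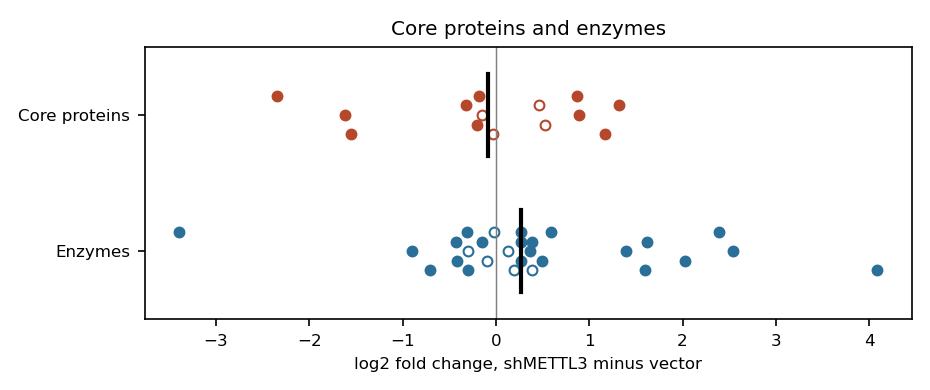
The same log2 fold changes (x axis) with the 14 tested core proteins in the upper row and the 28 tested enzymes in the lower row. Points are filled where the test was passed, HAS2 is set against a level of 3 counts, and vertical offsets are for legibility only. Black bars mark the medians, -0.09 and 0.27, and both rows spread widely on either side of 0.

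Among the syndecans, SDC2 fell and SDC4 rose. SDC2 encodes the syndecan typical of mesenchymal cells, and SDC4 the widely expressed syndecan of focal adhesions. SDC2 had 796, 716 and 641 counts in vector replicates 1, 2 and 3 and 143, 149 and 163 in shMETTL3 replicates 1, 2 and 3, so that each shMETTL3 library was far below each vector library. Its level went from 42.2 ± 2.6 CPM (SD, n = 3) to 8.37 ± 1.64 CPM (SD, n = 3), or 19.8% of the vector level (log2 fold change -2.35, standard error 0.096, adjusted p = 7.8e-18). SDC4 had 630, 561 and 507 counts in the vector and 1567, 1654 and 1349 in the shMETTL3 libraries. The level of SDC4 rose 2.49-fold, from 33.3 ± 2.03 to 82.9 ± 1.94 CPM (SD, n = 3 in each group, log2 fold change 1.32, standard error 0.061, adjusted p = 1.07e-16). In cultures read as a whole, fewer cells with a transcript and less of it in each cell cannot be told apart. SDC3, best known from neurons, also rose, by 0.90 on the log2 scale (adjusted p = 9.55e-09) from a lower level. SDC1, the main syndecan of epithelia, was the most abundant of the family per length of transcript and moved little, with 2112, 1996 and 2099 counts against 1979, 2127 and 1817. Its log2 fold change of -0.18 passed the test (adjusted p = 0.00566), but not with scaling by library size alone, where it was -0.01 (adjusted p = 0.94), nor without shMETTL3 replicate 1, where it was -0.14 (adjusted p = 0.0582).

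The make-up of the syndecan family therefore differed while its sum differed less. Per kilobase of the canonical transcript, the 4 syndecans summed to 65.9 ± 0.593 CPM in the vector and 71.9 ± 3.50 CPM under knockdown (SD, n = 3 in each group). SDC2 gave 17.8% to 20.4% of that sum in the vector and 3.17% to 4.10% under knockdown. The share of SDC4 was 17.9% to 20.4% in the former and 42.9% to 45% in the latter, while that of SDC1 went from 56.5% to 61.1% down to 47.0% to 47.7%. The ratio of SDC4 to SDC2 in a library needs no scaling between libraries, and stood at 1, 0.99 and 1 in the vector against 13.9, 14 and 10.5 in the shMETTL3 libraries, a 12.7-fold difference. This pair and the pairs of the families below were chosen after their values were seen. Each of the 4 pairs reached p = 0.1 in an exact permutation test (two-sided), below which no comparison of 3 with 3 libraries can go. Because of that choice, this p is no evidence of a difference. SDC2 lies on chromosome 8 of GRCh37 (97506041 to 97624018, plus strand). The 5 tested genes on each side of it had a median log2 fold change of -0.23, in a range from -0.55 to 0.73. Of these 10 genes, 2 were higher, 5 lower and 3 did not pass.

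Among the glypicans, GPC1 rose and GPC4 and GPC6 fell. GPC1, a glypican often described in carcinoma cells, had 398, 428 and 457 counts in the vector and 1059, 1165 and 903 in the shMETTL3 libraries, so that every shMETTL3 library was above every vector library. Its level rose 2.24-fold, from 25.3 ± 2.93 to 56.6 ± 1.65 CPM (SD, n = 3 in each group, log2 fold change 1.17, standard error 0.073, adjusted p = 7.85e-14). GPC6 fell from 709, 620 and 598 counts to 247, 237 and 195, or 32.6% of the vector level in CPM (log2 fold change -1.62, standard error 0.077, adjusted p = 2.16e-16). GPC4, which with GPC6 belongs to the branch of the family also known from astrocytes and development, fell from 96, 106 and 90 counts to 37, 41 and 30 (log2 fold change -1.55, standard error 0.17, adjusted p = 1.1e-08). GPC2 was low, with 19 to 24 counts in the vector and 31 to 34 in the shMETTL3 libraries, and did not pass (log2 fold change 0.53, adjusted p = 0.0804). GPC3, an oncofetal glypican of liver, and GPC5 had at most 9 and 3 counts in any library and were not tested.

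Per kilobase, GPC1 made up 45% to 51.8% of glypican transcripts in the vector and 83.2% to 84.7% in the shMETTL3 libraries, while GPC6 went from 35.4% to 41.9% down to 9.00% to 10.1%. The sum of the 6 glypicans was 13.9 ± 0.655 CPM per kilobase in the vector and 18.2 ± 0.395 under knockdown (SD, n = 3 in each group). The ratio of GPC1 to GPC6 was 1.07, 1.32 and 1.46 in the vector and 8.21, 9.41 and 8.87 in the shMETTL3 libraries, 6.91-fold higher. GPC6 lies on chromosome 13 (93879060 to 95060274 of GRCh37, plus strand) directly after GPC5. The 5 tested genes on each side of GPC6, in a window from 80910111 to 95953729, had a median log2 fold change of -0.03.

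**Figure D3:**
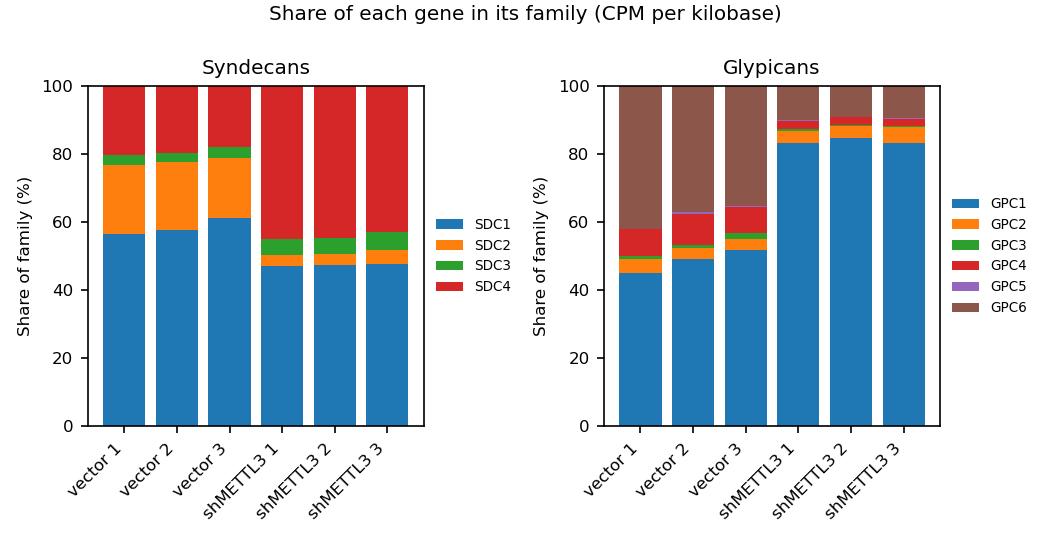
Share of each gene in the summed level of the 4 syndecans (left) and the 6 glypicans (right), in CPM per kilobase of the canonical transcript, as stacked bars for each of the 6 libraries. SDC3, SDC4 and GPC1 took a larger part of their family in all 3 shMETTL3 libraries than in any vector library, and SDC1, SDC2, GPC4 and GPC6 a smaller part.

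Of the secreted matrix proteoglycans VCAN, AGRN and HSPG2, the first 2 were slightly lower and HSPG2 did not pass. VCAN (versican), the large chondroitin sulfate proteoglycan of provisional matrix, had the highest level of the core proteins in CPM, with 14547, 12488 and 12054 counts in the vector and 12197, 12316 and 9353 in the shMETTL3 libraries. In CPM its groups did not overlap, at 766 ± 39.1 against 612 ± 21.4 (SD, n = 3 in each group), and it fell to 79.9% of the vector level (log2 fold change -0.32, adjusted p = 3.49e-06). AGRN (agrin), which organizes receptors at synapses and basement membranes, moved by -0.21 on the log2 scale (adjusted p = 0.00214), which was -0.03 with scaling by library size alone (adjusted p = 0.633). HSPG2 (perlecan), a basement membrane component, did not pass, with a log2 fold change of -0.03 and a 95% interval from -0.18 to 0.13. The chondroitin sulfate proteoglycan CSPG4 (NG2), a pericyte and melanoma antigen, had 25 to 38 counts and did not pass (log2 fold change -0.15, 95% interval -0.67 to 0.38).

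The small leucine-rich proteoglycans, which bind collagen fibrils and are typical products of fibroblasts, were at 0 or low. BGN (biglycan) had no count in any library. DCN (decorin) had none in the vector and 7, 4 and 2 under knockdown, and was not tested. LUM (lumican) had 42, 30 and 43 counts against 74, 60 and 38, and the groups overlapped (log2 fold change 0.46, adjusted p = 0.0621). The fibroblast markers moved in both directions beside these genes. Their summed level was 71.0 to 91.9 CPM in the vector and 63.2 to 68.4 CPM under knockdown, and most of it was FBLN1, with 996, 1124 and 1177 counts against 814, 929 and 662. COL1A1 had 72, 103 and 110 counts against 192, 214 and 171, and THY1 had 4, 0 and 1 against 32, 26 and 15. COL1A2 and POSTN had at most 3 counts in any library. The part of such cells in the results was not tested.

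SRGN (serglycin), the proteoglycan of secretory granules that is best known from blood cells, rose. It had 1642, 1416 and 1295 counts in the vector and 3117, 3018 and 2468 in the shMETTL3 libraries, with no overlap, and its level went from 85.2 ± 6.06 to 156 ± 5.46 CPM (SD, n = 3 in each group, log2 fold change 0.87, standard error 0.056, adjusted p = 1.77e-13). Per kilobase it was the most abundant core protein in both groups, at 27% of the summed core transcripts in the vector and 41.4% in the shMETTL3 libraries. All 18 core proteins summed to 253 to 265 CPM per kilobase in the vector and 306 to 311 in the shMETTL3 libraries. Without SRGN the sums were 184 to 193 and 179 to 184. The 10 blood cell markers summed to 0.368 to 0.479 CPM in the vector and 0.449 to 1.71 CPM under knockdown. PTPRC and CD68 had at most 2 counts in any library, while LAPTM5 had 2, 1 and 1 counts against 13, 2 and 3, SPI1 had 1, 0 and 0 against 5, 4 and 4, and LYZ had 0, 2 and 1 against 6, 2 and 6. Their part in the level of SRGN was not tested.

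Of the 5 enzymes that build the linker, XYLT1 changed most. Xylosyltransferases, XYLT1 and XYLT2, add the first sugar to the core protein. XYLT1 had 28, 38 and 36 counts in the vector and 220, 248 and 178 in the shMETTL3 libraries, a clear separation at a low level, and rose 5.81-fold (log2 fold change 2.54, standard error 0.15, adjusted p = 3.93e-14). XYLT2 was the more abundant of both in every library, and its log2 fold change was -0.31 (adjusted p = 0.00389, and 0.192 with scaling by library size alone), with 563, 558 and 682 counts against 530, 643 and 417. The ratio of XYLT1 to XYLT2 per kilobase was between 0.0175 and 0.024 in the vector and between 0.136 and 0.15 in the shMETTL3 libraries. The next enzymes of the linker moved less. The galactosyltransferase B4GALT7 fell (log2 fold change -0.43, adjusted p = 0.000145), the galactosyltransferase B3GALT6 rose (0.27, adjusted p = 0.00167), and the glucuronosyltransferase B3GAT3 did not pass (-0.02, 95% interval -0.19 to 0.15).

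**Figure D4:**
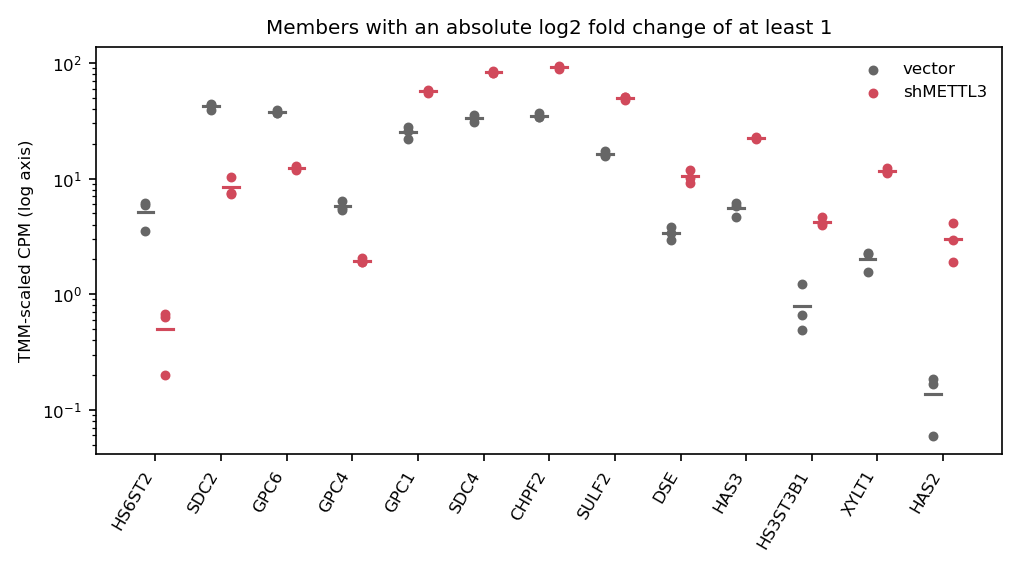
TMM-scaled CPM (log y axis) in each of the 3 vector (grey) and 3 shMETTL3 (red) libraries for the 13 genes with an adjusted p under 0.05 and an absolute log2 fold change of at least 1, ordered from the lowest to the highest log2 fold change. Each point is 1 library and each bar a group mean, and the groups do not overlap for any of the 13.

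Heparan sulfate chains are polymerized by EXT1 and EXT2 and started by EXTL3. EXT2 rose, with 1703, 1562 and 1555 counts in the vector and 2702, 2843 and 2313 in the shMETTL3 libraries (log2 fold change 0.59, standard error 0.051, adjusted p = 6.02e-11). EXTL2, which can add a sugar that ends the chain, fell (-0.42, adjusted p = 0.000101). The log2 fold change of EXTL3 was -0.15 (adjusted p = 0.0233), and its direction turned to 0.03 with scaling by library size alone (adjusted p = 0.689).

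Of the 8 enzymes that modify heparan sulfate in the Golgi, 7 were tested, 4 rose and 2 fell. The share that passed was 85.7% of these 7, beside 66.6% of all genes tested. GLCE, the epimerase that turns glucuronic into iduronic acid, was the most abundant of all 31 enzymes per kilobase, at 45.4 CPM in the vector and 54.8 CPM in the shMETTL3 libraries. It had 4164, 3891 and 3629 counts against 5437, 5605 and 4266 and rose by a small step (log2 fold change 0.27, standard error 0.049, adjusted p = 2.15e-05). NDST1, the main N-deacetylase and N-sulfotransferase, rose (0.36, adjusted p = 2.98e-06), as did HS2ST1, which sulfates iduronic acid (0.50, adjusted p = 1.5e-06). NDST2 had at most 9 counts in any library and was not tested.

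The largest changes among them were in the 6-O- and 3-O-sulfotransferases, which act late on the chain. HS6ST2 had 107, 102 and 57 counts in the vector and 13, 4 and 10 in the shMETTL3 libraries, and fell 10.5-fold (log2 fold change -3.39, standard error 0.30, adjusted p = 1.17e-10). The log2 fold change lay between -3.71 and -2.98 when single libraries were left out. Its relative HS6ST1 was more abundant, with 330, 330 and 355 counts against 312, 341 and 245, and moved by -0.30 on the log2 scale (adjusted p = 0.00368, and 0.208 with scaling by library size alone). HS3ST3B1, a 3-O-sulfotransferase, had 22, 11 and 8 counts in the vector and 76, 83 and 74 in the shMETTL3 libraries, and rose 5.23-fold (log2 fold change 2.39, standard error 0.25, adjusted p = 3.64e-09), in a range from 2.14 to 2.86 on the log2 scale when single libraries were left out. HS3ST1, which makes the antithrombin-binding site, had 49 to 58 counts against 58 to 98 and did not pass (0.39, adjusted p = 0.063).

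Outside the cell, sulfatases remove 6-O-sulfate from finished chains, and heparanase cuts them. SULF2 had 311, 263 and 263 counts in the vector and 929, 1007 and 806 in the shMETTL3 libraries, with a wide gap between the groups, and rose 3.03-fold (log2 fold change 1.60, standard error 0.071, adjusted p = 4.64e-17). SULF1 had at most 3 counts in any library. HPSE (heparanase) had 52, 37 and 37 counts against 32, 53 and 26, and the groups overlapped (log2 fold change -0.30, 95% interval -0.78 to 0.17). Between them, the enzymes on the 6-O position therefore moved as follows: the sulfotransferase HS6ST2 was lower, HS6ST1 slightly lower, and the sulfatase SULF2 higher. These are transcript levels, and the sulfate on the chains was not measured.

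Chondroitin sulfate chains are polymerized by CHSY1 or CHSY3 together with CHPF or CHPF2. Here CHPF2 rose and CHPF fell. CHPF2 had 612, 571 and 596 counts in the vector and 1834, 1841 and 1404 in the shMETTL3 libraries, and rose 2.63-fold (log2 fold change 1.39, standard error 0.059, adjusted p = 1.58e-17). CHPF had 600, 560 and 638 counts against 473, 399 and 328 (log2 fold change -0.70, standard error 0.083, adjusted p = 2.9e-08). The ratio of CHPF2 to CHPF per kilobase was 0.774, 0.774 and 0.709 in the vector and 2.94, 3.50 and 3.25 in the shMETTL3 libraries, 4.29-fold higher. CHSY1 did not pass (0.13, adjusted p = 0.0565), though its groups did not overlap in CPM, and CHSY3 had at most 6 counts in any library.

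Of the 6 enzymes that sulfate or epimerize these chains, 3 rose and 1 fell, a share of 66.7% that is near the 66.6% of all genes tested. DSE, the epimerase that makes dermatan from chondroitin sulfate, had 69, 56 and 48 counts in the vector and 176, 240 and 162 in the shMETTL3 libraries, and rose 3.08-fold (log2 fold change 1.62, standard error 0.15, adjusted p = 1.84e-10). CHST14, which sulfates dermatan, rose less (0.39, adjusted p = 0.00196), as did the chondroitin 4-O-sulfotransferase CHST11 (0.27, adjusted p = 0.000737). CHST15, which adds a further sulfate to 4-sulfated units, fell to 53.6% of the vector level (-0.90, standard error 0.070, adjusted p = 7.06e-12), with 778, 704 and 678 counts against 449, 424 and 377. CHST3, the 6-O-sulfotransferase, had the highest vector level of the 31 enzymes per kilobase after GLCE, with 2862, 2672 and 2844 counts against 2898, 3170 and 2455, and did not pass (-0.09, 95% interval -0.20 to 0.01). CHST12, another 4-O-sulfotransferase, did not pass either (0.19, adjusted p = 0.0739).

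Of the hyaluronan synthases, HAS2 and HAS3 rose, and HAS1 was too low to be tested, with 0, 1 and 6 counts against 12, 16 and 6. HAS3 had 84, 102 and 94 counts in the vector and 437, 455 and 348 in the shMETTL3 libraries, and rose 4.08-fold, from 5.52 ± 0.744 to 22.4 ± 0.430 CPM (SD, n = 3 in each group, log2 fold change 2.03, standard error 0.10, adjusted p = 1.3e-15). HAS2 had 3, 1 and 3 counts in the vector, none above the floor of 3 counts, and 57, 38 and 66 under knockdown. Against a level of 3 counts in each vector library, it was at least 17.0-fold higher (adjusted p = 1.49e-09).

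On the genome, 4 of the 49 genes lie on chromosome X. Of these, BGN and GPC3 were not tested, and GPC4 and HS6ST2 fell. The 445 tested genes of the chromosome had a median log2 fold change of 0.74, with 365 higher and 24 lower. HS6ST2 (131760043 to 132095423), GPC4 (132434131 to 132549517) and GPC3 (132669773 to 133121127, all on the minus strand of GRCh37) are close together. Of 10 tested genes, 5 on each side of the pair that fell, 6 were higher, 3 lower and 1 did not pass, with log2 fold changes from -3.56 to 2.29.

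Several of these genes share exonic bases with an antisense gene, and whether the counting used strand is not given in the sources used here. The overlapped gene had a log2 fold change of 0.57 for SMARCD3, opposite CHPF2, of 0.51 for NCOA3, opposite SULF2, of 0.30 for TSPYL1, opposite DSE, and of -0.32 for CHTF8, opposite HAS3. NCOA3, at a mean of 2594 counts in the vector and 4010 under knockdown, was more abundant than SULF2, and TSPYL1 (690 and 921) and CHTF8 (1082 and 937) were more abundant than DSE and HAS3, while SMARCD3 (330 and 529) was less abundant than CHPF2. HAS2-AS1, opposite HAS2, had a mean of 0.667 counts in the vector and 10.0 in the shMETTL3 libraries. TMEM198, opposite CHPF, had a mean of 19.3 and 11.7 counts, a log2 fold change of -0.83. On the same strand, exons of AGRN, NDST2, GLCE, HS2ST1, CHPF2 and DSE overlap another annotated gene, where a counter can leave out reads as ambiguous. The part of these overlaps in the results was not tested.

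The letters GGACT, a common form of the sequence on which m6A is placed, were counted in the sense strand of the canonical transcripts of GENCODE. The median was 1.24 per kilobase over the 49 genes, including the 7 that were not tested. Over all tested genes with a matched transcript it was 0.92, so these medians cover unlike sets. Among tested genes of the list, the median was 1.04 per kilobase for the 18 that rose, 1.21 for the 14 that fell and 1.1 for the 10 that did not pass. SDC2 and SDC4, which moved in opposite directions, had 0.302 and 0.383 per kilobase, GPC6 had 0.281 and GPC1 2.69, and SRGN had 3.29. Among the genes that fell, the highest value was 2.36, for B4GALT7. Whether the number of these letters goes with the direction was not tested, and methylation was not measured in these libraries.

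A further list of 69 genes of the same pathway, which are not among the 49, covered other core proteins, the supply of sugar and sulfate precursors, hyaluronan binding and breakdown, and the lysosomal breakdown of the chains. Of these, 46 were tested and 31 passed, 16 higher and 15 lower, with a median log2 fold change of 0.00073. That is 67.4% of those tested, near the 66.6% of all genes. Of the 31, 9 reached an absolute log2 fold change of at least 1, or 19.6% of those tested, against 17.6% of all genes.

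Of 6 tested genes that bind or break down hyaluronan, 4 fell and 1 rose. In all 83.3% of them passed and 66.7% were lower, beside 66.6% and 32.9% of all genes tested. HYAL1, a lysosomal hyaluronidase, fell from 2323, 2272 and 2201 counts to 616, 643 and 457, or 23.2% of the vector level (log2 fold change -2.11, standard error 0.059, adjusted p = 1.67e-21). HYAL3 fell too (-1.03, adjusted p = 3.31e-09), as did HYAL2, a hyaluronidase anchored at the cell surface (-0.91, adjusted p = 4.36e-10). The 3 genes are neighbours on chromosome 3, and exons of HYAL2 and HYAL3 overlap other genes on the same strand. CEMIP, which binds hyaluronan and takes part in its breakdown outside lysosomes, moved the other way (1.53, adjusted p = 1.49e-14), and its relative CEMIP2 fell (-0.54, adjusted p = 1.72e-10). CD44, the main hyaluronan receptor, had 14106 to 15465 counts in the vector and 14764 to 19048 in the shMETTL3 libraries and did not pass (0.10, adjusted p = 0.0757).

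Of 8 further core proteins tested, 3 rose and 2 fell, or 62.5%, near the 66.6% of all genes tested. SPOCK1 (testican 1) had 4, 4 and 2 counts in the vector and 80, 98 and 89 in the shMETTL3 libraries (log2 fold change 4.58, standard error 0.31, adjusted p = 4.71e-13), a size that is uncertain so close to the floor. SPOCK2 (testican 2) fell from 171, 156 and 161 counts to 83, 73 and 85 (-1.13, adjusted p = 5.89e-08). COL18A1, a collagen of basement membranes that carries heparan sulfate, rose (1.46, adjusted p = 9.79e-17), as did its relative COL15A1, from 5 to 6 counts to 17 to 30 (1.88, adjusted p = 0.000111). DSEL, a second dermatan epimerase, fell (-1.30, adjusted p = 7.42e-10) where DSE rose.

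EXT1, the partner of EXT2, did not pass (log2 fold change 0.0017, adjusted p = 0.982). In precursor supply, 5 of 10 genes rose and 2 fell, or 70%, near the 66.6% of all genes tested. Their log2 fold changes ran from -0.33 for the sulfate donor transporter SLC35B2 to 0.93 for PAPSS2, which makes that donor. Of the 14 genes listed for lysosomal breakdown, 4 rose and 4 fell, or 57.1% beside 66.6% of all genes tested. The list includes SUMF1 and SUMF2, which are not themselves lysosomal enzymes, and SUMF2 is among those that fell. The largest change there was that of IDS, iduronate-2-sulfatase, a gene of chromosome X, which rose from 338, 333 and 294 counts to 1025, 1060 and 826 (1.48, standard error 0.068, adjusted p = 1.07e-16).

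**Figure D5:**
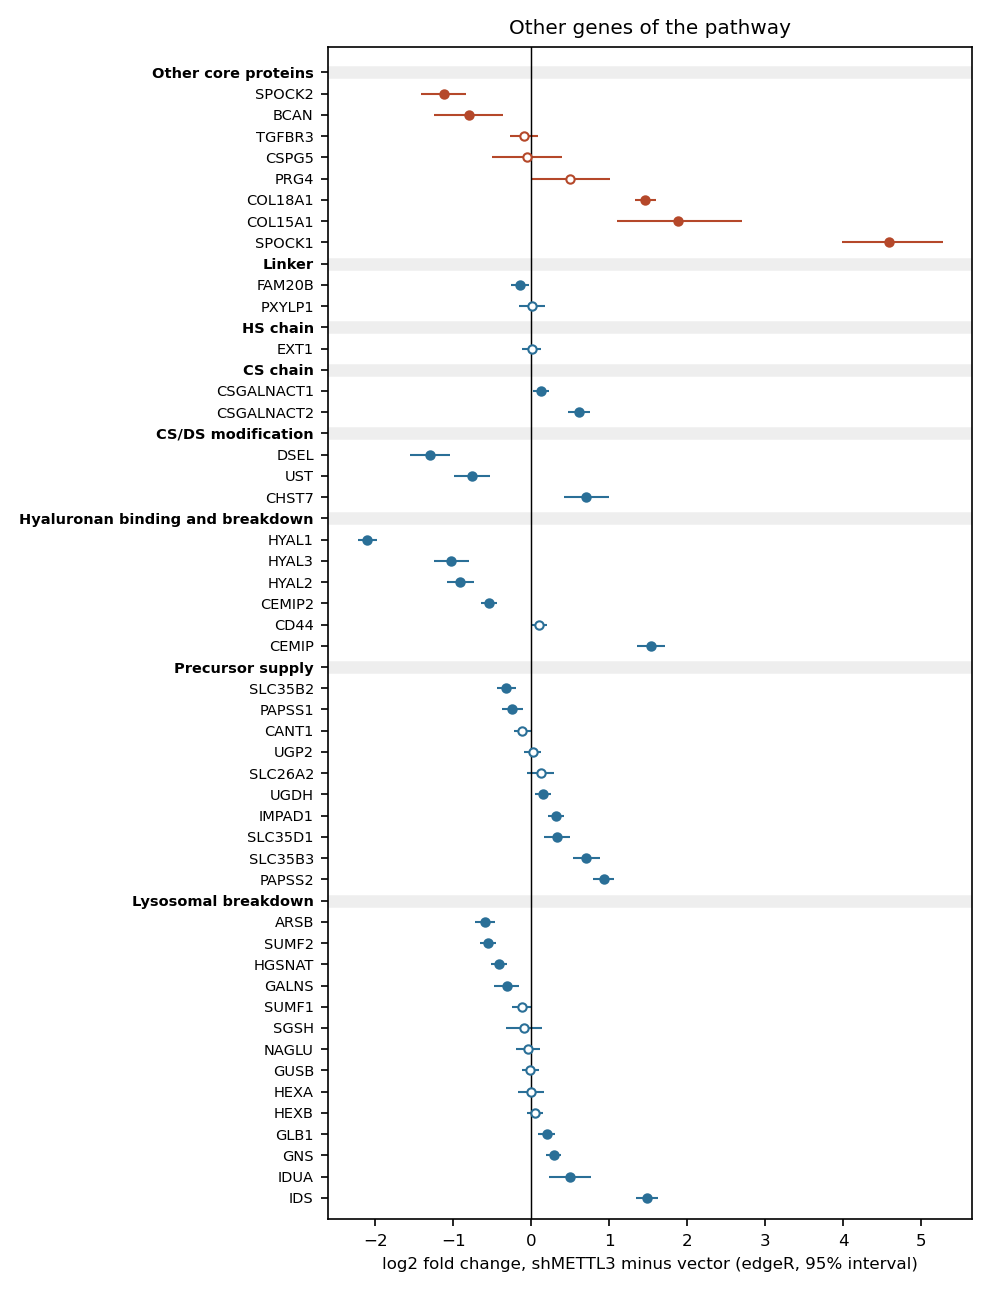
Log2 fold change (shMETTL3 minus vector, x axis) of the 46 tested genes among 69 further pathway genes, by role, with 95% intervals from the edgeR fit, filled points where the test was passed, core proteins in red and all others in blue. HYAL1 lies farthest to the left and SPOCK1 farthest to the right, while most genes of precursor supply and lysosomal breakdown lie within 1 of 0.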

How the data were processed

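Counts per gene of 6 A549 libraries were used as the authors deposited them, as whole-number counts without normalization. The submitters' processing notes name cutadapt 3.0, HISAT2 2.2.1, SAMtools 1.13, HTSeq 0.13.5 and hg19, where the paper's methods give other versions of HISAT2 and htseq. Annotation and strand setting are not given in the sources used here. Groups and replicate numbers came from the sample titles, and the count columns were matched to the titles by number.

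Counts were fitted in R 4.3.3 with edgeR 4.0.16 (filterByExpr, TMM, glmQLFit and glmQLFTest on the group alone), with Benjamini-Hochberg adjustment over the 15125 genes tested. Alternatives were RLE, upper-quartile and library-size scaling, omitting the filter, a filter of 10 or more counts in all libraries, DESeq2 1.42.0, a replicate block and each library left out in turn. A level of 3 counts per library (0.150 to 0.189 CPM) was the floor, which covers counting error only. Genes given with each library's counts had an adjusted p under 0.05 and an absolute log2 fold change of at least 1, or were the 2 most abundant per length in their class, and others were added where a family was compared. The members and lists were chosen with earlier results of these data known.

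Positions, transcript lengths and overlaps came from GENCODE 44 lifted to GRCh37, the build named hg19, which held all 49 symbols and 90.5% of the tested genes. Levels per kilobase use the canonical transcript, which need not be the one expressed. The fit was tested on simulated counts of 14884 genes, set up as shMETTL3 against vector. Far fewer genes were changed there than the 66.6% that passed in the deposited counts. Scaling with so large a share changed was not tested. edgeR recovered 47 of 60 genes changed by 0.5, 70 of 73 changed by 1 and 63 of 63 changed by 2 on the log2 scale, and called 8 unchanged genes. Libraries of a group differed by more than sampling noise, with a chi-square per degree of freedom from 2.75 to 7.27.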

Additional observations from a re-analysis of the deposited data

How the results depend on the processing

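Of the 32 genes that passed the test, 27 had the same direction and stayed past the threshold in each of the 13 alternatives that tested them; HAS2, HS6ST2 and HS3ST3B1 could not be tested with at least 10 counts in every library. The exceptions were AGRN, SDC1, XYLT2, EXTL3 and HS6ST1, which lost the call with scaling by library size alone. EXTL3 also lost it with upper-quartile scaling and without shMETTL3 replicate 1 or 3, and SDC1 without shMETTL3 replicate 1. Of the 10 genes that had not passed, LUM, HS3ST1 and CHSY1 each passed under 5 of the alternatives, CHST12 under 3 and GPC2 under 1. The changed core proteins numbered 9 to 11 and the changed enzymes 21 to 24, beside 10 and 22. All counts of changed genes stayed within 1.5 times their value, from 9076 to 10648 beside 10067 for all genes, with 9234 under DESeq2. Library size alone gave 65.8% higher among changed genes where TMM gave 50.6%, with 6 of 10 core proteins, 17 of 22 enzymes and 23 of 35 other pathway genes higher, where TMM gave 4 of 10, 14 of 22 and 16 of 31.

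The median log2 fold change of core proteins turned from -0.086 to 0.089 and that of enzymes moved from 0.27 to 0.45 with scaling by library size alone, which shifts all genes by 0.17. With single libraries left out, the core median ran from -0.15 to 0.068, the latter without vector replicate 3. Directions also turned for EXTL3 and for 4 genes that had not passed. With scaling by library size alone HSPG2 stood at 0.15, CSPG4 at 0.029, B3GAT3 at 0.16, EXTL3 at 0.027 and CHST3 at 0.082. B3GAT3 was at 0.0078 with upper-quartile scaling and at 0.0027 with at least 10 counts in every library. Leaving out single libraries gave ranges of -0.11 to 0.10 for HSPG2, -0.33 to 0.039 for CSPG4 and -0.091 to 0.076 for B3GAT3. The cause was not tested. Same-numbered libraries had correlations of 0.052, -0.0066 and 0.033 in their deviations from the group means, so no pairing by number was visible. Whether same-numbered libraries were prepared together cannot be told from these values. With the replicate block, 10111 genes, 10 core proteins, 23 enzymes and 32 other pathway genes were changed, and among the 49 genes only the call of CHSY1 differed, at 0.13 (adjusted p = 0.0445). Genes below about 10 counts, 7 of the 49, could not be judged at this depth.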
